A study of Homo sapiens with 6 samples.

Results

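Levamisole is known to act on 2 kinds of protein: alkaline phosphatases, which it inhibits, and nicotinic acetylcholine receptors, which it opens in the muscle of parasitic worms. The RNA of 10 human genes of these kinds was looked up among the 20745 genes of the study's table. The search used the gene identifier, and the symbol where that identifier had no row. The genes were 3 phosphatases (ALPL, ALPP and ALPPL2) and 7 receptor subunits (CHRNA1, CHRNA3, CHRNA5, CHRNA7, CHRNA9, CHRNB1 and CHRNB2). Of the 10 genes, 6 had a row and 4 (ALPP, ALPPL2, CHRNA3 and CHRNA9) had none in the table used here. A level of at least 5 normalized counts, the minimum set for this description, was reached by CHRNA5 and CHRNB1. The other 4 listed genes (ALPL, CHRNB2, CHRNA1 and CHRNA7) were below it.

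The cells were AB 8/13 podocytes, a human kidney line that divides at the permissive temperature and differentiates when it is moved to the restrictive temperature. There were 3 vehicle cultures and 3 cultures that received 1 µM levamisole for 24 h, all differentiated and all of this single line, with 3 different passages in each group. Serum was absent from the medium of both groups according to the labels, whereas the methods of the study give the vehicle cultures complete medium, which contains serum. All values given here are the base mean of the authors' deposited table, which is the mean of the normalized read counts over every library of their fit, vehicle and levamisole together. The table holds no value per culture, so no SD, no n per group and no test can be given, and the depth of each library is unknown. The number of libraries in that mean is not given in the sources used here and may be larger than 6. The levels may therefore include libraries that are not described here. The stated cutoff of 5 reads per sample does not describe the table as a whole, since 3744 of its base means were under 1. None of these 3744 values was repeated, whereas whole read counts in 6 libraries would be expected to give repeats at such levels. The number of libraries could not be checked further. The effect of levamisole on these genes was not analysed here, because the fold changes and p-values in the table belong to the authors' own comparison.

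Nicotinic receptors are ligand-gated ion channels built of 5 homologous subunits around a pore. Some alpha subunits, such as alpha7 and alpha9, can form channels by themselves, whereas others need beta subunits or further partners. The muscle receptor joins alpha1 and beta1 with delta and with epsilon or gamma. Alkaline phosphatases are enzymes on the cell surface, held by a glycosylphosphatidylinositol (GPI) anchor. ALPL encodes the tissue-nonspecific form, which is expressed in bone, liver and kidney and is readily inhibited by levamisole, whereas the placental and germ-cell forms encoded by ALPP and ALPPL2 are far less sensitive to it.

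The levels covered a wide range. CHRNA5 had the highest base mean of the 6 listed genes (25.4 normalized counts) and CHRNB1 the next (19.6 normalized counts). ALPL followed with a base mean of 2.80, CHRNB2 with 2.09, CHRNA1 with 1.39 and CHRNA7 with 0.769. The median base mean of all genes in the table was 21.8, with quartiles at 1.75 and 130.5. CHRNA5 therefore lay just above the middle of the table and CHRNB1 just below it, and CHRNA1 and CHRNA7 lay below the lower quartile. The median of the protein-coding genes with a row was higher, at 66.1. Against those genes, CHRNA5 and CHRNB1, which are protein-coding too, both lay below the middle.

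**Figure D1:**
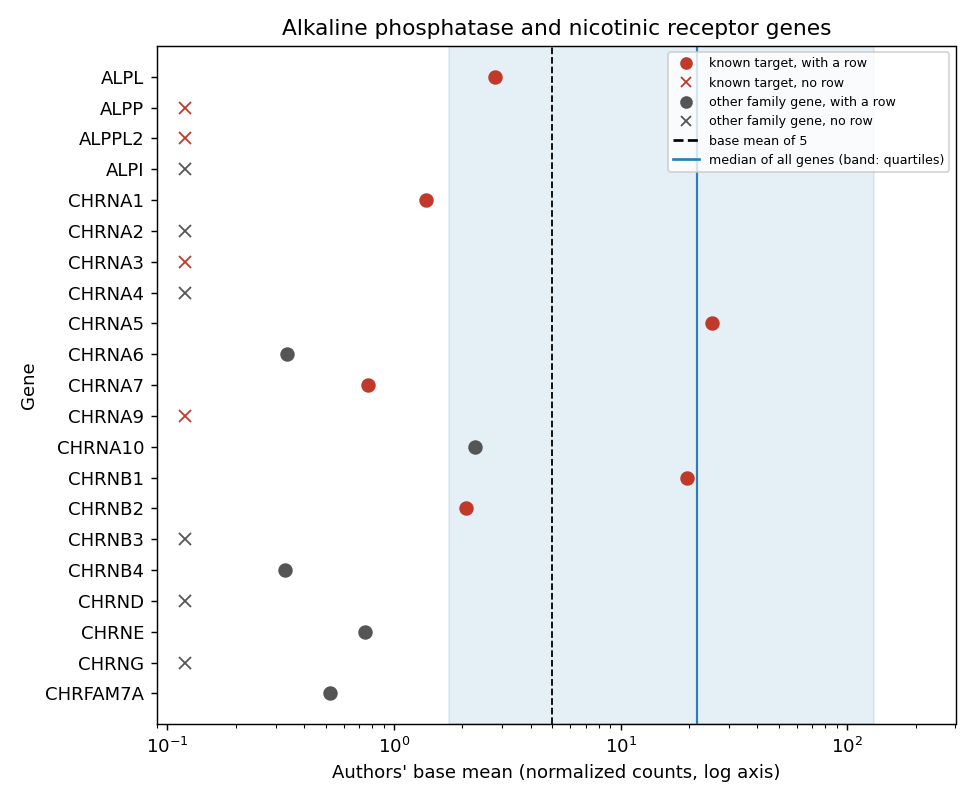
Base mean (normalized counts, log axis) of each alkaline phosphatase and nicotinic receptor gene, with CHRFAM7A. Red marks are the 10 known targets, grey marks the rest of both families and CHRFAM7A, and crosses at the left edge are genes with no row and carry no value, while the blue line and band are the median and quartiles of all genes. CHRNA5 (25.4) and CHRNB1 (19.6) are the points to the right of the dashed line at 5.

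Placed by rank, CHRNA5 was at 10046 and CHRNB1 at 10594 of the 20745 genes, counted from the highest base mean. The base mean of CHRNA5 exceeded that of 51.6% of the genes and that of CHRNB1 exceeded 48.9%. For ALPL this share was 30.04%, for CHRNB2 26.9%, for CHRNA1 22.1% and for CHRNA7 14.4%. A base mean of at least 5 was held by 64.3% of the genes in the table. Of the protein-coding genes of GENCODE 44, 72.1% had a row and 59.0% reached a base mean of 5, against 60% and 20% of the 10 targets. These shares are descriptions of a short list chosen for its pharmacology, and no test was made of them.

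**Figure D2:**
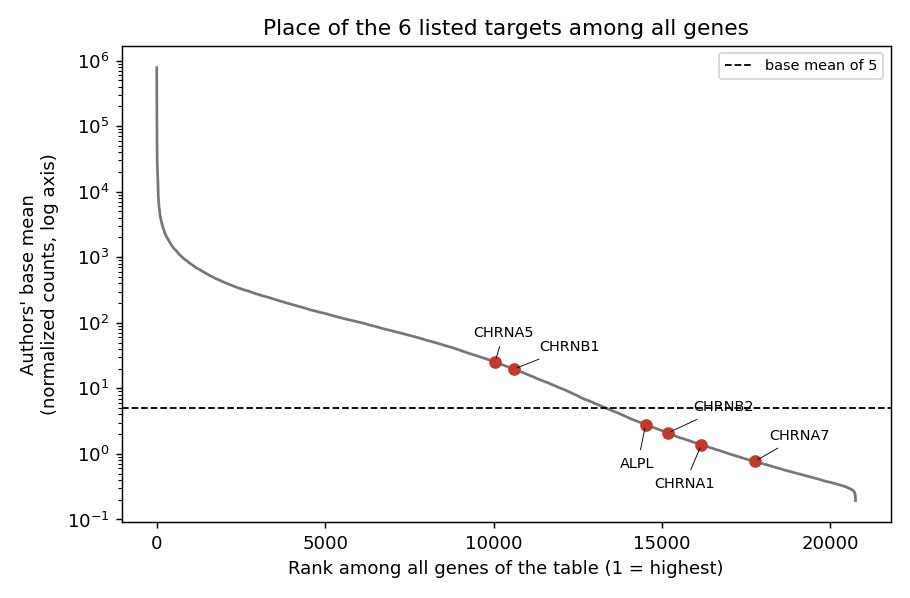
Base mean (log axis) of all 20745 genes ordered from highest to lowest, with the 6 listed targets as red points. CHRNA5 and CHRNB1 lie near the middle of the curve, and ALPL, CHRNB2, CHRNA1 and CHRNA7 lie below the dashed line at a base mean of 5.

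The order changed in part when the base mean was divided by transcript length. Per kilobase of the canonical transcript, CHRNB1 had a base mean of 7.65 and CHRNA5 one of 7.01, so that the order of these genes turned around. ALPL had 1.10 per kilobase, CHRNA1 0.700, CHRNB2 0.356 and CHRNA7 0.125. CHRNA1 thus passed CHRNB2 on this scale, while ALPL stayed in the third place and CHRNA7 in the last. The study used a modified form of CEL-seq, whose reads fall near the poly(A) tail whatever the length of the transcript. Such counts do not grow with length, so the undivided base mean is the scale that fits these reads. The order per kilobase is given as an alternative only. The base mean of CHRNA5 was 1.30 times that of CHRNB1, and per kilobase that of CHRNB1 was 1.09 times that of CHRNA5. Without values per culture, it is not known whether either difference exceeds the spread between cultures.

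CHRNA5 (ENSG00000169684) lies on chromosome 15 of GRCh38 from 78565520 to 78595269, on the plus strand, and its canonical transcript has 6 exons and 3623 bases. It encodes alpha5, an accessory subunit that joins other alpha and beta subunits and does not form a channel by itself. Its usual partners were at lower levels or had no row. CHRNB2 (chromosome 1, 154567778 to 154580013), the beta subunit of the main brain receptor, had a base mean of 2.09, and CHRNB4, the beta subunit of the ganglionic receptor, had 0.332. CHRNA3 and CHRNA4, the alpha subunits of these receptors, had no row.

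CHRNA5, CHRNA3 and CHRNB4 are neighbours in a gene cluster. CHRNA3 (ENSG00000080644, chromosome 15, 78593052 to 78621295) lies on the minus strand and meets CHRNA5 tail to tail, and the 2 gene models overlap by 2218 bases. The canonical transcripts of the pair do not overlap, and 39 bases separate their 3′ ends. The last 500 exonic bases of CHRNA5 were covered in 0% by exons of any other gene, on the same or the opposite strand, and so were those of CHRNA3. Of the other protein-coding genes within 150 kb of CHRNA5, PSMA4, a proteasome subunit gene, had a base mean of 246.8, IREB2, an iron-responsive RNA-binding protein gene, 89.4, and HYKK, a hydroxylysine kinase gene, 13.2. The level of CHRNA5 was thus between those of HYKK and IREB2, whereas CHRNA3 and CHRNB4 at the other end of the cluster were without a row or at 0.332.

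**Figure D3:**
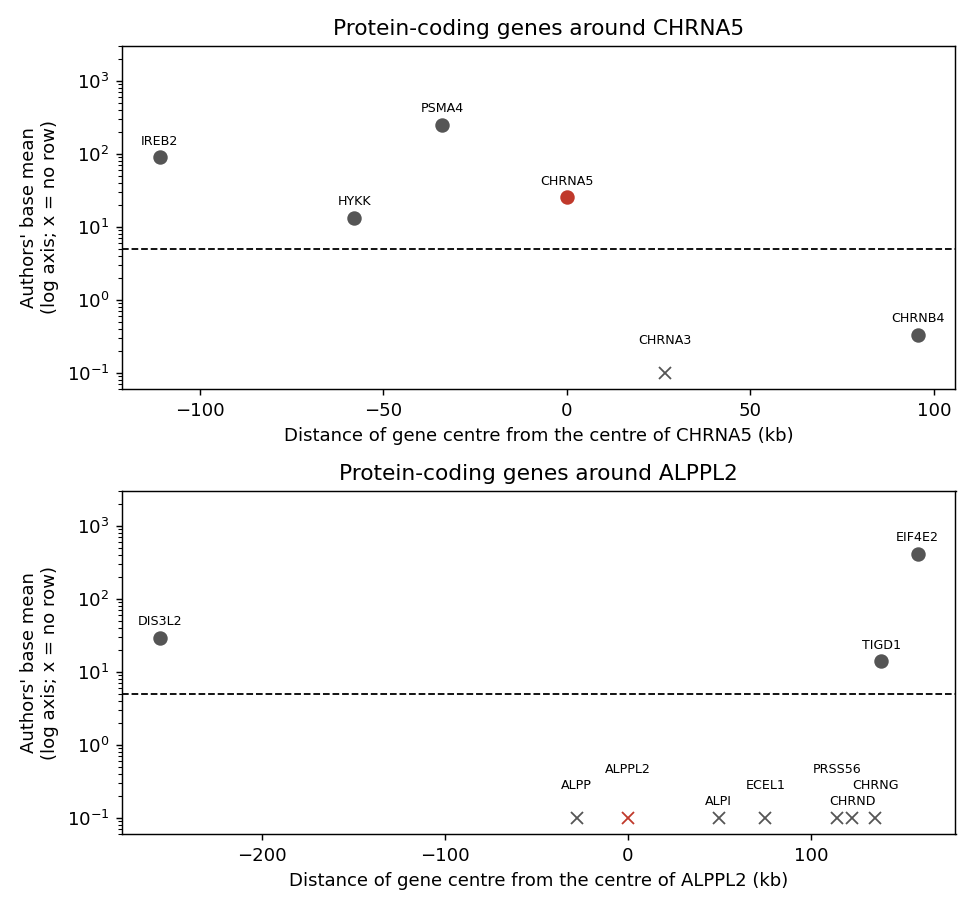
Base mean (log axis) of protein-coding genes by the distance of their centres (kb) from CHRNA5 (upper panel) and ALPPL2 (lower panel), which are the red marks. Crosses are genes without a row, drawn at the bottom with no value, and the dashed line is a base mean of 5. CHRNA3 is the only cross around CHRNA5, while the genes from ALPP to CHRNG are all crosses around ALPPL2.

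CHRNB1 (ENSG00000170175) lies on chromosome 17 from 7445061 to 7457710, on the plus strand, with 11 exons and 2560 bases in its canonical transcript. It encodes beta1, a structural subunit of the muscle receptor. The remaining subunits of that receptor did not reach a base mean of 5. CHRNA1 (ENSG00000138435, chromosome 2, 174747592 to 174787935, minus strand), which encodes the acetylcholine-binding subunit alpha1, had a base mean of 1.39. CHRNE, the epsilon subunit of adult muscle, had 0.747, and CHRND and CHRNG, the delta and fetal gamma subunits, had no row. The skeletal muscle markers ACTA1, CKM and MYH3 had base means of 2.18, 0.894 and 0.543, and MYOG and DES had no row.

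The promoters of CHRNB1 and CHRNA1 are shown because these genes encode subunits of the same receptor and differed in level. They run from 250 bases before to 50 bases after the annotated start, 5′ to 3′, as RefSeq gives them for GRCh38.p14 at chr17:7444811-7445110 (plus strand) and chr2:174764423-174764722 (minus strand), with CpG dinucleotides in capitals.
CHRNB1: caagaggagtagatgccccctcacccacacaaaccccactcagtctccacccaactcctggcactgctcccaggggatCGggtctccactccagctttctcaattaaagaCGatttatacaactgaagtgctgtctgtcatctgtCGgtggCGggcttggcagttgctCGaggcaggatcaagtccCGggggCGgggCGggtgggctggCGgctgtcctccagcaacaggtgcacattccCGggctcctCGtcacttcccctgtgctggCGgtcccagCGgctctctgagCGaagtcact
CHRNA1: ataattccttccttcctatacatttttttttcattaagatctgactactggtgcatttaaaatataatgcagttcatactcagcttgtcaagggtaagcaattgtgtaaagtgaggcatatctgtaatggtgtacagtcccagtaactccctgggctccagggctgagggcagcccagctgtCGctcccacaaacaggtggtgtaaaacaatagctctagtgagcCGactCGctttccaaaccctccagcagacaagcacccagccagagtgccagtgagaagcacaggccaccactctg

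The promoter of CHRNB1 held 14 CpG dinucleotides and that of CHRNA1 held 3, and the median over 35116 promoters of the same length was 14. CHRNB1 had 4 matches to the E-box letters CANNTG and CHRNA1 had 3, and 68.7% of all promoters held at least 1. The GC-box letters GGGCGG, on either strand, started at 2 places that share a base in the CHRNB1 promoter and at 0 in that of CHRNA1, and 45.0% of all promoters held them. Of the 10 targets, 9 had a promoter in the RefSeq table, and CHRNA5 was not among them. CHRNA7 with 38 and CHRNA3 with 31 CpG had the most, and CHRNA7 had a base mean of 0.769 while CHRNA3 had no row. CHRNB2 had 15, ALPL 11, ALPP and ALPPL2 6 each, and CHRNA9 5.

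ALPL (ENSG00000162551) lies on chromosome 1 from 21509397 to 21578410, on the plus strand, with 12 exons and 2536 bases in its canonical transcript. Its base mean of 2.80 was the third highest of the targets and was under the minimum of 5. All 441 stretches of 60 bases in its last 500 exonic bases were unique in the genome and in the annotated transcripts, and exons of other genes covered 0% of this window. Its neighbours RAP1GAP and USP48 had base means of 2.45 and 257. ALPL was the only alkaline phosphatase gene with a row.

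ALPP (ENSG00000163283, chromosome 2, 232378724 to 232382889) and ALPPL2 (ENSG00000163286, now named ALPG, chromosome 2, 232406844 to 232410714) lie next to each other on the plus strand, each with 11 exons. ALPI, the intestinal phosphatase gene, follows them, and then come ECEL1, PRSS56, CHRND and CHRNG. None of these 7 genes, phosphatases and receptor subunits alike, had a row. The flanking genes DIS3L2 (29.5), TIGD1 (14.03) and EIF4E2 (412.5) all had a base mean above 5. CHRNG and TIGD1 lie on opposite strands, and TIGD1 covered 100% of the last 500 exonic bases of CHRNG.

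The ends of the phosphatase coding sequences are shown because they let the few differences between ALPP and ALPPL2 be seen. Each run is the last 60 coding bases before the stop codon in the canonical GENCODE 44 transcript, 5′ to 3′, with the bases that differ between the pair in capitals.
ALPP: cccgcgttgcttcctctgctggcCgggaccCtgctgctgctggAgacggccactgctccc
ALPPL2: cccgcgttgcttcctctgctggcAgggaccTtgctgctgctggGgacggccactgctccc

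Over the whole coding sequence ALPP and ALPPL2 were identical at 97.8% of 1596 aligned bases, with 3 differences in the 60 bases shown. ALPL was identical to ALPP at 64.1% and to ALPPL2 at 64.2% of the aligned bases, and ALPI to ALPP at 89.7%. The untranslated ends told the pair apart. In the last 500 exonic bases of ALPPL2, 0 of 441 stretches of 60 bases occurred elsewhere in the genome or in another gene's transcript, and in ALPP 30 of 441 did. All 30 occurred elsewhere in the genome, and at most 19 of them lay in the transcripts of any single other gene, with MIR99AHG, SPECC1 and XACT at the top. In the last 1000 exonic bases of ALPPL2, 2 of 941 stretches occurred in ALPP.

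CHRNA7 (ENSG00000175344) lies on chromosome 15 from 31923438 to 32173018, on the plus strand, and encodes alpha7, which forms channels from a single kind of subunit. Its base mean of 0.769 was the lowest of the 6 listed targets. CHRFAM7A (ENSG00000166664, chromosome 15, 30360566 to 30393849), a human gene that joins a copy of the end of CHRNA7 to another sequence, had a base mean of 0.521. The end of the coding sequence of both genes is shown because it is the same in each, again as the last 60 bases before the stop codon.
CHRNA7: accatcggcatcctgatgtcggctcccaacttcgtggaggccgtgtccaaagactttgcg
CHRFAM7A: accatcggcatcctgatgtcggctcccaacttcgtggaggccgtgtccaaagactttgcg

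The 60 bases held 0 differences, and the coding sequences were identical at 97.3% of 1236 aligned bases. In the last 500 exonic bases of CHRNA7, 401 of 441 stretches of 60 bases, the length of the study's cDNA read, occurred more than once in the genome (90.9%). Of those 401 stretches, 0 lay in annotated transcripts of another gene, CHRFAM7A included. For CHRFAM7A all 441 occurred more than once, and all 441 were also found in CHRNA7 transcripts. A read from these stretches has more than 1 place in the genome, and HTSeq-count with default settings, as the methods state, does not count such reads. The base means of CHRNA7 and CHRFAM7A are therefore uncertain, and low RNA and uncounted reads cannot be told apart in them.

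**Figure D4:**
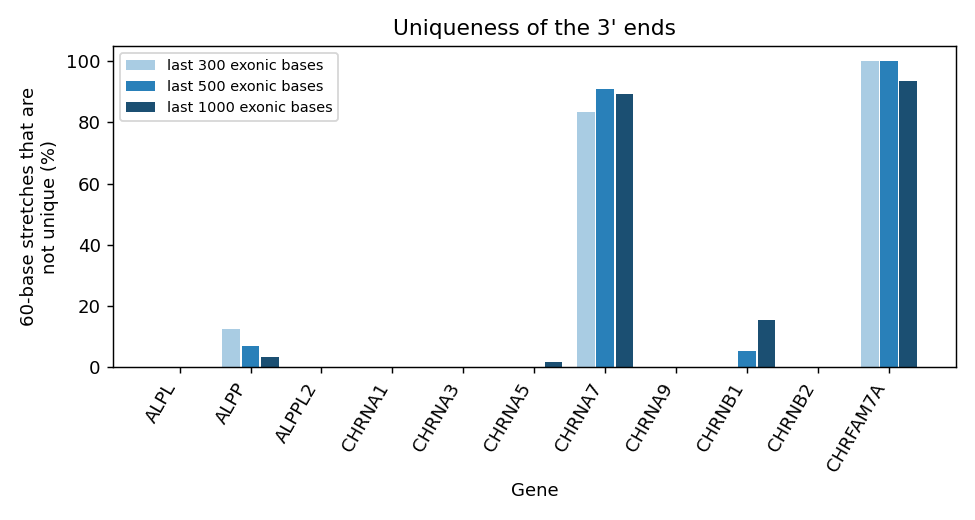
Percentage of 60-base stretches that occur elsewhere in the genome or in transcripts of another gene, for the last 300, 500 and 1000 exonic bases of each target and of CHRFAM7A. CHRNA7 stands at 83.4%, 90.9% and 89.4% and CHRFAM7A at 100% in the window of 500, while the other targets reach at most 15.5% (CHRNB1, window of 1000).

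For the rest of the targets the 3′ ends were mostly unique. In the last 500 exonic bases the number of repeated stretches was 0 of 441 for ALPL, ALPPL2, CHRNA1, CHRNA3, CHRNA5, CHRNA9 and CHRNB2, 24 of 441 for CHRNB1 and 30 of 441 for ALPP. Same-strand exons of other genes covered 0% of each of the 10 windows. CHRNB2 was covered in 9.4% by an unnamed antisense gene (ENSG00000233875). ALPPL2, CHRNA3 and CHRNA9, which had no row, thus had unique and uncovered 3′ ends in this annotation, which is later than the authors' release.

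Since the CEL-seq primer binds the poly(A) tail, the poly(A) signals of the targets are shown, with the signal in capitals in a window of 30 bases of the canonical transcript, 5′ to 3′.
ALPL: acaaaacatttaAATAAAactttccaaata
CHRNA1: cagtagaaatgaAATAAActaaaatgcaaa
CHRNA7: gacacttttaaaAATAAAattaattccatc
CHRNB1: actatctctgggATTAAAaaaagttatttc
ALPP: aaataaataaatAATAAAaggaagtgttag
ALPPL2: acacaaagcaatAATAAAaggaagtgttag
CHRNA3: ttcctgtgcaaaAATAAAatggacagaatt
CHRNA9: atttagtcttgtATTAAAataaggtgatta

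The signal AATAAA was found in the last 50 bases of the canonical transcripts of ALPL, ALPP, ALPPL2, CHRNA1, CHRNA3 and CHRNA7, and the variant ATTAAA in those of CHRNA9 and CHRNB1. Neither was found there in CHRNA5 and CHRNB2. Of 20046 canonical protein-coding transcripts, 63.4% held AATAAA in this window, 13.9% held ATTAAA without AATAAA and 22.6% held neither. CHRNA5, the target with the highest base mean, was thus among the transcripts without these letters in that window.

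CHRNA9 (ENSG00000174343, chromosome 4, 40335333 to 40355217, plus strand) encodes alpha9, a subunit known from cochlear hair cells, and had no row. CHRNA10, its partner there, had a base mean of 2.27. Among the 7 receptor targets the coding sequences were identical at 51.9% (CHRNA9 with CHRNB1) to 63.7% (CHRNA1 with CHRNA3) of aligned bases, so that the subunits differ far more from each other than ALPP from ALPPL2 or CHRNA7 from CHRFAM7A.

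**Figure D5:**
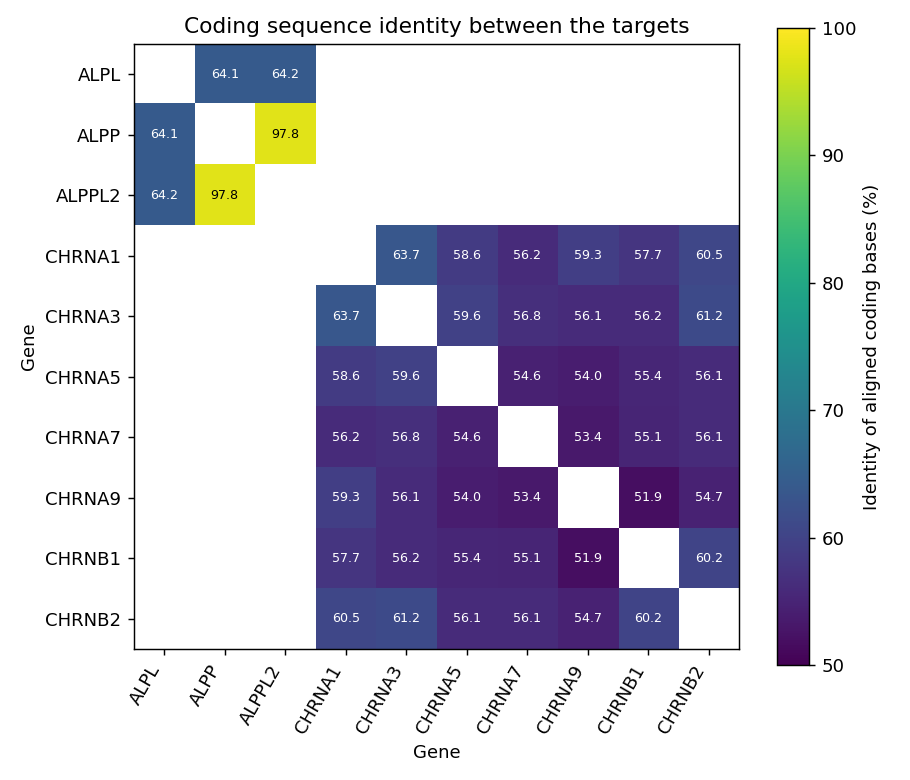
Identity of aligned coding bases (percent, colour and printed value) between the targets, within the phosphatases and within the receptor subunits. The cell of ALPP with ALPPL2 (97.8%) stands apart, and the receptor subunits lie between 51.9% and 63.7%. Pairs across the families were not aligned.

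Over the whole family of 16 nicotinic subunits, 9 had a row and 2, CHRNA5 and CHRNB1, had a base mean of at least 5. The median of the 9 was 1.39, against 21.8 over all genes of the table and 66.1 over the protein-coding genes with a row. CHRNA5 and CHRNB1 together held 85.02% of the summed base means of the 9 subunits. Beside the subunits already given, CHRNA6, a subunit of dopaminergic neurons, had a base mean of 0.335, and CHRNA2 and CHRNB3 had no row. The muscarinic receptors, the G protein-coupled receptors for acetylcholine, had rows for CHRM3 (2.01) and CHRM5 (0.652), and CHRM1, CHRM2 and CHRM4 had none.

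Genes that serve the receptors and their ligand were also looked up. For comparison, 59.0% of all protein-coding genes reached a base mean of 5, and the median of those with a row was 66.1. Of 13 genes for assembly factors and Ly6 regulators, 10 had a row and 8 (61.5% of the list) a base mean of at least 5. The median over the 10 with a row was 29.5. The highest were the general chaperones CANX (1690) and HSPA5 (342) and the Ly6 family gene LY6E (303), and LY6H, SLURP1 and SLURP2 had no row. RIC3 and TMEM35A, chaperones needed for alpha7 receptors, were picked out with their values known and had base means of 15.3 and 4.53. Of the 5 genes for clustering of the muscle receptor, AGRN (385), DOK7 (54.1) and LRP4 (15.4) passed the minimum (60% of the list). MUSK, the receptor kinase that AGRN and LRP4 act on, had no row. Of 9 genes for the synthesis, transport and breakdown of acetylcholine, 4 (44.4%) passed. The highest were the choline transporter genes SLC44A2 (839) and SLC44A1 (342) and BCHE (178), which encodes butyrylcholinesterase. CHAT, the enzyme that makes acetylcholine, SLC5A7 and PRIMA1 had no row.

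Around the phosphatases, 6 of 11 genes for pyrophosphate and phosphate handling (54.5%) had a base mean of at least 5, against 59.0% of all protein-coding genes. The median over the 8 listed genes with a row was 76.5, against 66.1 over the protein-coding genes with a row. The highest of the list were NT5E (629), a GPI-anchored nucleotidase, and the phosphate transporters SLC20A1 (480) and SLC20A2 (356). ENPP1 and ANKH, which supply extracellular pyrophosphate, a substrate of ALPL, were picked out in the same way and had base means of 33.9 and 111. SMPD3, SLC34A2 and SLC34A3 had no row. Of 4 genes for vitamin B6 phosphates, further substrates of ALPL, 3 (75%) passed, among them PDXK (221) and PHOSPHO2 (38.5), and PDXP had no row. All 11 genes for the GPI anchor passed, with a median of 116 and PIGK (817), GPAA1 (212) and PIGT (207) highest.

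The labelled cell type was compared with its markers. Of 11 podocyte markers, 9 had a row and 7 a base mean of at least 5, among them CD2AP (929), SYNPO (22.8) and PLA2R1 (21.8). That is 63.6% of the list, against 59.0% of all protein-coding genes. NPHS1, the gene of the slit diaphragm protein nephrin, had no row. The 4 endothelial, 4 proximal tubule, 4 leukocyte and 5 muscle markers reached base means of at most 0.306, 1.219, 1.06 and 2.18. Of 5 neuronal markers, SYT1 (73.8) and RBFOX3 (5.45) passed the minimum, SNAP25 had 3.12, TUBB3 0.239 and ELAVL4 no row. In cultures of bulk cells, fewer cells that express a gene and less RNA per cell cannot be told apart.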

How the data were processed

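RNA from 3 vehicle and 3 levamisole cultures was sequenced by a modified CEL-seq method. Groups follow the treatment label, since every sample title holds the word control. Per the labels and the study's methods, the authors trimmed reads with Trim Galore 0.4.5, mapped them to GRCh38 with STAR 2.7.5a, counted them with HTSeq-count 0.11.0 on Ensembl 95, and ran DESeq2 1.22.0 with a minimum of 5 reads per sample per gene. The deposited base mean is a signal, the mean of counts divided by size factors over all libraries of the authors' fit. Another 5 columns hold the authors' own comparison (log2 fold change, its standard error, Wald statistic, p-value, adjusted p-value) and were not used, so no test was made.

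Ranks, shares and sequence features were computed with Python 3.11.15, pandas 2.3.3, NumPy 2.4.6 and Biopython 1.88, and figures with matplotlib 3.10.9. Positions, canonical transcripts and coding sequences came from GENCODE 44 on GRCh38, in which 20599 of 20745 gene identifiers matched. Coding sequences were aligned globally. Stretches of 60 bases were searched exactly, on both strands of chromosomes 1 to 22, X, Y and M, and in transcripts. Exons of genes with identifiers above the highest in the table were left out of the cover. This search, the alignment and the percentile were checked on made-up sequences and values with known answers. Named are the 10 targets, both families, and of each other list the 3 highest genes and those without a row. Some genes of these lists are not reported here. The targets and lists were chosen with earlier results of these data known. Alternatives were other minimums, scales and windows.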

Additional observations from a re-analysis of the deposited data

How the results depend on the processing

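No paired analysis was possible because single cultures have no values in the table. So edgeR, DESeq2 size factors and left-out replicates were not run, and depth limits every level by an unknown amount. The count of 2 targets at a base mean of at least 5 (CHRNA5 and CHRNB1) became 5 at a minimum of 1, stayed 2 at 10 and became 0 at 50. As a CPM of the summed base means, CHRNA5 went from 3.9998 to 6.13 and CHRNB1 from 3.09 to 4.73 once the mitochondrial genes (34.8% of the sum) were left out. The share of genes below CHRNA5 was 51.6% of the table, 24.7% among genes of at least 5 and 47.4% per kilobase. For CHRNB1 these shares were 48.9%, 20.6% and 48.6%. Over the 78 entries of the related lists, 37 reached 5 and 34 reached 10. With windows of 300 and 1000 bases, added after the data were seen, repeated stretches made up 83.4% and 89.4% for CHRNA7, 12.4% and 3.19% for ALPP, and 0% and 15.5% for CHRNB1. Over all alternatives 14 values stayed and 24 moved. Any value other than a count was called moved if it differed at all, and a change of scale or gene set alters it by construction. The tally therefore does not measure how robust the results are.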

Other observations

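The 3 genes given here were picked out with their values known, among the neighbours of CHRNB1 and the marker lists. EIF4A1, the RNA helicase of the translation initiation complex and a neighbour of CHRNB1, had a base mean of 12.6. Exons of other genes on the same strand, the readthrough gene SENP3-EIF4A1 among them, covered 100% of its last 500 exonic bases. TUBB3, a neuronal tubulin gene, had a base mean of 0.239, and an overlapping gene (ENSG00000198211) covered 99% of that window. GPS2, a corepressor subunit gene that also lies near CHRNB1, had 0.944 with 100% covered. Whether this cover takes part in the low values was not tested. For the 10 targets the same measure was 0%.

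All 3744 base means under 1 in the table were different numbers, and the lowest was 0.194.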
